A study of Arabidopsis thaliana with 12 samples.

Results

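The question here was whether blocking protein synthesis alters the response of root cells to nuclear ABI3, measured for every transcript as the interaction in a 2 by 2 experiment. The interaction is the effect of dexamethasone (DEX) in cells given cycloheximide (CHX), minus the effect of DEX in cells without CHX, on the log2 scale. Its members are all 12 of the 12 arrays, with 3 arrays in each of 4 groups, and it was computed for 22746 of the 22810 probe sets, the other 64 being Affymetrix controls. An interaction above 0 means that DEX raised a transcript more, or lowered it less, when translation was blocked.

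All cells were protoplasts, that is, cells freed of their walls, from roots of Arabidopsis thaliana ecotype Columbia. They had been transformed with a construct whose sample notes read ABI3-GR. The +DEX +CHX group received 10 µM DEX and 35 µM CHX, the -DEX +CHX group received 35 µM CHX without DEX, the +DEX -CHX group received 10 µM DEX without CHX, and the -DEX -CHX group received neither. The promoter of the construct, the length of the treatments and the share of cells transformed are not given in the sources used here. No arrays of protoplasts that lacked the construct were used here, so an effect of DEX itself and an effect of nuclear ABI3 cannot be told apart. The numbered replicates are not described as separate preparations, so their spread, on which the p-values rest, may be technical.

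ABI3 is a transcription factor with a B3 DNA-binding domain that drives the maturation programme of the seed, in which cells fill with storage proteins and oil bodies and make the late embryogenesis abundant (LEA) proteins that accompany drying. Fusion to the hormone-binding part of the glucocorticoid receptor keeps such a factor in the cytoplasm until DEX is added. CHX stops translation, so transcripts that change only after another protein has been made are not expected to respond, while short-lived transcripts often accumulate because proteins that repress or degrade them are no longer made. An interaction therefore compares the DEX response in these 2 states and does not by itself say which state departs from an untreated cell.

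The values were array intensities, and the number of arrays limits their precision. The median intensity of an array ran from 115.5 to 220.8, and between 2.84% and 17.9% of its probe sets lay at or under the floor of 16 that was set before taking log2. Pairs of arrays within a group had correlations of 0.893 to 0.950 over the probe sets. Hybridisation controls had a geometric mean of 215 on -DEX +CHX replicate 1, against 7102 or more on each of the other 11 arrays. In a fit with array weights, the lowest weights fell on -DEX -CHX replicate 2 (0.438) and +DEX +CHX replicate 2 (0.468). The ratio of the 3' to the 5' control probe sets for ubiquitin, a sign of RNA quality, was 6.51, 7.41 and 8.01 in the +DEX +CHX group, against 6.10, 5.57 and 5.08 in the -DEX +CHX group. Without CHX it was 6.25, 5.97 and 6.78 in the +DEX -CHX group, against 6.26, 7.58 and 6.28 in the -DEX -CHX group. The ubiquitin ratio was thus higher with DEX on all arrays with CHX, and the groups without CHX overlapped. For GAPDH the ratio was 2.50, 2.56 and 4.33 in the +DEX +CHX group, against 2.19, 2.19 and 2.30 in the -DEX +CHX group. For actin these groups overlapped, at 11.44, 4.79 and 5.26 against 5.77, 16.62 and 5.66. Without CHX the GAPDH and actin ratios overlapped between the DEX groups. The part of these ratios in the interaction was not tested. A gene is called measured here only where the platform annotation used names it alone for a probe set. Other genes may lie among the 8730 probe sets without a named gene. Of the root markers, 3 of 15 were measured in this sense. The root beta-glucosidase PYK10 averaged 8.44, 8.55, 12.91 and 13.30 log2 units in the +DEX +CHX, -DEX +CHX, +DEX -CHX and -DEX -CHX groups. Of 8 green-tissue markers only Rubisco activase (RCA) was measured, at 6.89, 7.16, 8.44 and 8.34 in the same order, and none of the 6 seed markers was. In these bulk samples, fewer cells of a type and less RNA per cell cannot be told apart.

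Only 1 of the 22746 probe sets passed an adjusted p of 0.05 for the interaction in limma's moderated test, which is 0.0044% of those tested. At an unadjusted p under 0.05, 485 interactions lay above 0 (2.13%) and 1329 below 0 (5.84%). The count past the threshold was 15 without -DEX +CHX replicate 1, 3 without +DEX +CHX replicate 3, 2 without +DEX -CHX replicate 3, and 0 without +DEX +CHX replicate 1, +DEX -CHX replicate 1 or 2, or any -DEX -CHX replicate. The DEX effects with CHX and those without CHX had a Pearson correlation of -0.16 across probe sets. Their SDs, 0.57 and 0.55, were little above their median standard error of 0.45. Their medians also moved in opposite directions with level. With and without CHX they were -0.201 and 0.385 at a mean log2 of 5 to 6, and 0.111 and -0.064 at 12 or more. The part of noise and level in this correlation was not tested, so it does not show how far CHX changes the DEX response. The CHX effects with DEX and those without DEX, which had wider SDs and the same median standard error, had a correlation of 0.76. Both correlations are descriptions across probe sets, which are not independent replicates, and neither pair of effects shares an array. The median DEX effect was -0.12 with CHX and 0.10 without CHX, so that the median interaction was -0.22, with an SD of 0.85 across probe sets and a median standard error of 0.64. That median depends on how the arrays are scaled. It was 0.14 when each array was centred on its median and 0.02 after quantile normalization, and list medians below are therefore given relative to the median of all 13355 measured genes, which was -0.26. The share of interactions above 0 among those at an unadjusted p under 0.05 moved with it, at 26.7% as deposited, 49.3% after centring, 47.8% after quantile normalization, 33.8% with a floor of 64 and between 21.5% and 35.6% when 1 array was left out.

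**Figure D1:**
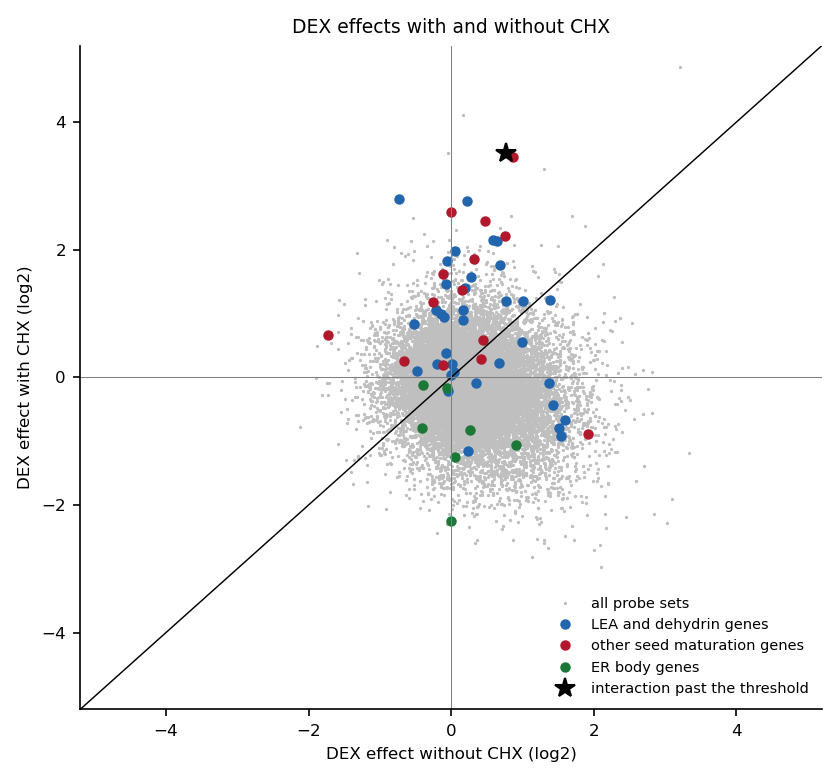
DEX effect with CHX (y axis, log2) against DEX effect without CHX (x axis, log2) for all 22746 probe sets (grey), with the LEA and dehydrin genes (blue), other seed maturation genes (red), ER body genes (green) and the probe set past the threshold (star). The line marks equal effects: the star lies at 3.52 with CHX and 0.77 without, and 13 of the 14 seed maturation genes and 26 of the 35 LEA genes had interactions above the median of all genes, whereas only 2 of the 7 ER body genes did.

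The probe set past the threshold was 260716_at, for which the annotation used here names no gene. Its log2 intensities were 10.75, 10.50 and 10.74 in the +DEX +CHX group, against 7.51, 7.35 and 6.58 in the -DEX +CHX group. Without CHX they were 13.97, 13.87 and 14.11 in the +DEX -CHX group, against 13.39, 13.09 and 13.15 in the -DEX -CHX group. None of the 4 groups overlapped another. DEX thus gave an 11.5-fold higher level with CHX (log2 effect 3.52 ± 0.21, SE) and a 1.70-fold higher level without CHX (0.77 ± 0.21). The interaction was 2.75 ± 0.30 (SE, n = 3 arrays per group), with an adjusted p of 0.015 in limma. Read across the other axis, the level was 9.96-fold lower with CHX in cells given DEX and 67-fold lower with CHX in cells without DEX. The interaction stayed between 2.47 and 3.11 in 23 alternative analyses, and passed the threshold in 12 of them, with adjusted p-values in limma from 0.0014 to 0.13.

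No gene named in the annotation passed the threshold in limma, while at an unadjusted p under 0.05 there were 257 genes above 0 and 821 below 0 of 13355. The 14 genes with the smallest p among interactions above 0 had adjusted p-values of 0.075 to 0.18 in limma, with interactions of 1.46 to 3.54, and are described here as estimates and not as calls. In all 14 the +DEX +CHX arrays lay above every -DEX +CHX array. In 9 of the 14 the +DEX -CHX and -DEX -CHX arrays overlapped. Ranking by the interaction favours separate groups with CHX, and the shares over all genes were not computed. The DEX effects of the 14 ran from 0.69 to 3.45 with CHX (median 1.98), and from -1.07 to 0.87 without CHX (median -0.24), with opposite signs in 10. Ranking by the difference of the 2 effects favours opposite signs. Their mean levels ran from 6.95 for AT3G22490 to 13.79 for AtLEA4-1, against a median of 7.25 for all probe sets, and none had a value at the floor.

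Several of the 14 are members of the seed lists described further on. AT3G54940, which encodes a papain-type cysteine protease, had log2 intensities of 11.71, 11.21 and 11.94 in the +DEX +CHX group, against 8.63, 7.51 and 8.37 in the -DEX +CHX group. Without CHX it had 12.85, 12.37 and 12.37 in the +DEX -CHX group, against 11.56, 11.94 and 11.50 in the -DEX -CHX group. Its DEX effect was 3.45 ± 0.28 with CHX and 0.87 ± 0.28 without CHX, an interaction of 2.58 ± 0.39 (SE, adjusted p = 0.097 in limma). It was higher with DEX on all arrays with CHX, and also on all arrays without CHX, where the gap was smaller.

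AT5G45690 had log2 intensities of 10.95, 10.99 and 10.04 in the +DEX +CHX group, against 8.36, 7.66 and 8.19 in the -DEX +CHX group. Without CHX it had 10.01, 9.48 and 9.63 in the +DEX -CHX group, against 9.86, 9.60 and 9.67 in the -DEX -CHX group. The groups were separate with CHX and intermixed without it. Its interaction was 2.59 ± 0.38 (SE, adjusted p = 0.084 in limma), made up of a DEX effect of 2.59 with CHX and -0.01 without. AT1G27461 had the smallest p of the 14, with log2 intensities of 12.52, 12.39 and 12.32 in the +DEX +CHX group, against 11.03, 10.43 and 9.83 in the -DEX +CHX group. Without CHX it had 11.71, 11.30 and 11.23 in the +DEX -CHX group, against 11.80, 12.13 and 11.87 in the -DEX -CHX group. The +DEX arrays were the higher ones with CHX and the lower ones without it, for an interaction of 2.50 ± 0.35 (SE, adjusted p = 0.075 in limma).

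AT4G36600, a LEA gene, had log2 intensities of 12.44, 11.67 and 12.02 in the +DEX +CHX group, against 9.88, 8.90 and 9.07 in the -DEX +CHX group. Without CHX it had 13.24, 12.70 and 13.14 in the +DEX -CHX group, against 12.58, 13.33 and 12.53 in the -DEX -CHX group, which overlapped. AT1G04560, which encodes a membrane protein of the AWPM-19 family, had 12.60, 12.34 and 12.78 in the +DEX +CHX group, against 11.45, 10.80 and 10.60 in the -DEX +CHX group. Its 6 arrays without CHX lay together, at 12.65, 12.53 and 12.49 in the +DEX -CHX group and 12.69, 12.76 and 12.57 in the -DEX -CHX group. For this gene the -DEX +CHX group stood apart from the other 3, all of which overlapped. AT3G22490, a seed maturation gene of the LEA class, had the largest interaction of the 14 at 3.54 ± 0.62 (SE, adjusted p = 0.13 in limma), with a mean of 8.08 in the +DEX +CHX group, 5.29 in the -DEX +CHX group, 6.84 in the +DEX -CHX group and 7.58 in the -DEX -CHX group.

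In 13 of the 14 genes the -DEX +CHX arrays lay below every -DEX -CHX array. Ranking by the interaction favours a low -DEX +CHX group, and the share of all genes with this order was not computed. The median CHX effect over the 14 was -1.82 without DEX and 0.15 with DEX. For all genes these medians were -0.01 and -0.45. The exception was AT5G50360, whose mean was 13.51 in the +DEX +CHX group, 12.04 in the -DEX +CHX group, 11.35 in the +DEX -CHX group and 11.88 in the -DEX -CHX group, so that the +DEX +CHX group was the one standing apart. The tetraspanin gene TET4, a membrane protein gene, had an interaction of 2.84 ± 0.55, with DEX effects of 2.04 with CHX and -0.80 without. AtLEA4-1, a LEA gene of group 4, had an interaction of 1.92 ± 0.37, with DEX effects of 1.97 with CHX and 0.06 without. AT1G54870, which encodes an oxidoreductase with a Rossmann fold, had an interaction of 1.46 ± 0.27, with DEX effects of 2.21 with CHX and 0.76 without. The remaining members, AT3G15280, AT3G22240, AT3G03170 and AT4G31830, had interactions of 1.84, 1.76, 1.77 and 1.77.

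**Figure D2:**
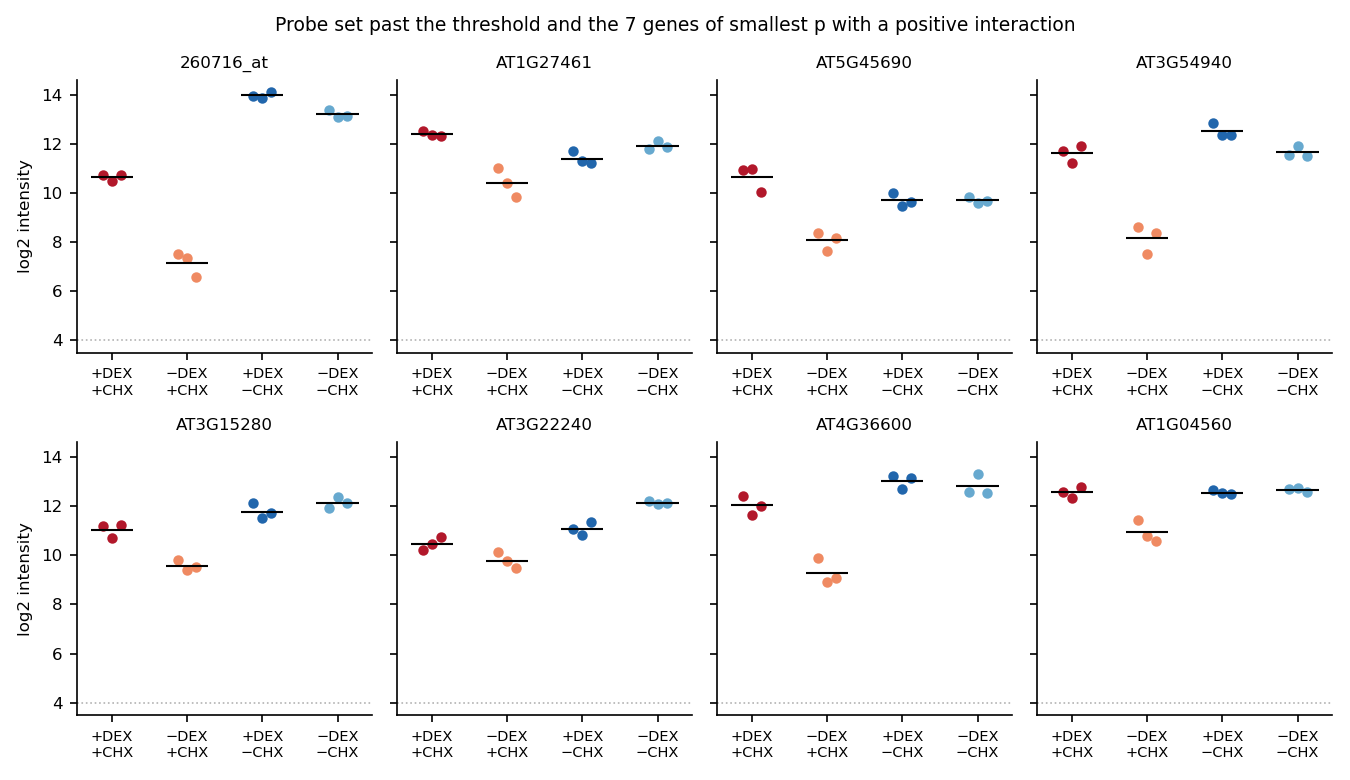
Log2 intensity (y axis) on each array of the 4 groups (x axis) for the probe set past the threshold and the 7 genes of smallest p with an interaction above 0. Points are arrays, bars are group means and the dotted line is the floor: in every panel the 3 +DEX +CHX points lie above the 3 -DEX +CHX points, while the groups without CHX are closer or reversed.

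Lists of seed genes were compared with all measured genes. They were put together with earlier DEX results of these arrays known, so their direction is not independent evidence. Of 14 other seed maturation genes, none passed the threshold. At an unadjusted p under 0.05, 9 lay above 0 (64.3%) and 1 below 0, where all genes gave 1.92% above 0 and 6.15% below 0. Their median interaction was 1.44, which is 1.70 above the median of all genes and between 1.15 and 1.83 above it in the 23 alternatives. The mean level of the 14 genes was 9.88, 10.07 and 9.82 in the +DEX +CHX group, against 8.84, 8.48 and 8.63 in the -DEX +CHX group. Without CHX it was 10.35, 10.13 and 10.03 in the +DEX -CHX group, against 9.87, 9.91 and 10.21 in the -DEX -CHX group. The mean level was thus higher with DEX on all arrays with CHX, and the DEX groups overlapped without it. AT1G54860 (1.98), AT4G27530 (2.40), AT2G19320 (1.53), AT5G01300 (1.43) and AT5G07330 (1.21) were the other members above 0 at that p. AT2G34700 was the member below 0, at -2.80 ± 1.18, a dim transcript with 3 of its 12 values at the floor.

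Of 35 LEA and dehydrin genes, none passed the threshold, 14 lay above 0 at an unadjusted p under 0.05 (40.0%) and 3 below 0 (8.57%). Their median interaction was 0.47, which is 0.72 above the median of all genes and 0.52 to 1.02 above it in the alternatives. Their mean level was 10.31, 10.28 and 10.33 in the +DEX +CHX group, against 9.78, 9.42 and 9.43 in the -DEX +CHX group. Without CHX it was 10.97, 10.78 and 10.84 in the +DEX -CHX group, against 10.50, 10.41 and 10.54 in the -DEX -CHX group. The +DEX arrays lay above the -DEX arrays in both states, and the median DEX effect over the genes was 0.89 with CHX and 0.19 without. AT3G53040, an abundant LEA gene, had 14.57, 13.97 and 14.52 in the +DEX +CHX group, against 12.22, 12.20 and 12.24 in the -DEX +CHX group, and 15.08, 14.67 and 14.85 in the +DEX -CHX group, against 13.86, 14.45 and 14.35 in the -DEX -CHX group. Its interaction was 1.49 ± 0.30. LEA18 (1.56 ± 0.32), AT4G21020 (1.54 ± 0.36) and LEA4-5 (1.21 ± 0.35) had values of like size. The dehydrins COR47 (0.21 ± 0.30) and LTI30 (0.05 ± 0.33), which are known for their responses to cold and drought, had interactions smaller than their standard errors. COR15A, a cold-regulated plastid protein gene, lay below 0 at -2.27 ± 0.92, with 3 of its 12 values at the floor, as did AT3G53770 at -2.30 ± 0.60. AT5G27980 was the other member below 0 at that p, and its +DEX +CHX arrays were all at the floor.

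In the storage list 11 cupin and oleosin genes were measured, and the annotation named no albumin or caleosin gene of the list. The list was divided, with 4 above 0 (36.4%) and 1 below 0 (9.09%) at an unadjusted p under 0.05. All genes gave 1.92% above 0 and 6.15% below 0. Its median interaction was 0.04, which is 0.29 above that of all genes and 0.09 to 1.07 above it in the alternatives. The median DEX effect over the genes was 0.12 with CHX and 0.22 without. The oleosins are small proteins that coat oil bodies. The oleosin gene AT2G25890 had 11.16, 11.11 and 10.99 in the +DEX +CHX group, against 9.69, 9.14 and 8.30 in the -DEX +CHX group, and 11.86, 11.05 and 10.98 in the +DEX -CHX group, against 11.17, 11.34 and 10.72 in the -DEX -CHX group. Its DEX groups were apart only with CHX, and its interaction was 1.83 ± 0.45. AT3G01570, also an oleosin gene, had an interaction of 2.44 ± 0.60, in which DEX effects of 1.46 with CHX and -0.98 without CHX were opposed. The cupin gene AT2G18540 had an interaction of 1.65 ± 0.40. OLEO3 ran the other way at -2.07 ± 0.75, with 6.92, 5.64 and 7.15 in the +DEX +CHX group, against 6.33, 6.53 and 6.97 in the -DEX +CHX group, and 8.27, 8.35 and 7.83 in the +DEX -CHX group, against 5.84, 5.43 and 7.08 in the -DEX -CHX group. Its DEX groups overlapped with CHX and were apart without it.

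The seed lists were brighter than the array as a whole, and the interaction moved with brightness. In the LEA list 18 of 35 genes, and in the seed maturation list 7 of 14, had a mean log2 level of 10 or more. Of all 1440 genes at that level, 6.67% lay above 0 and 3.89% below 0 at an unadjusted p under 0.05, against 1.35% above 0 and 6.42% below 0 among the 11915 dimmer genes. After quantile normalization, which nearly levelled that trend above a mean log2 of 5, the median of the seed maturation list was 1.15 and that of the LEA list 0.56 above the median of all genes, and 9 and 16 of their members lay above 0 at that p. With both arrays of lowest weight left out, an analysis added after seeing the data, the counts were 9 and 15. Without the array that nearly lacked hybridisation controls they were 9 and 17. The counts above 0 at that p over all 22746 probe sets moved as well. In the same order of settings they were 928, 716 and 462, against 485 with all arrays as deposited.

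**Figure D3:**
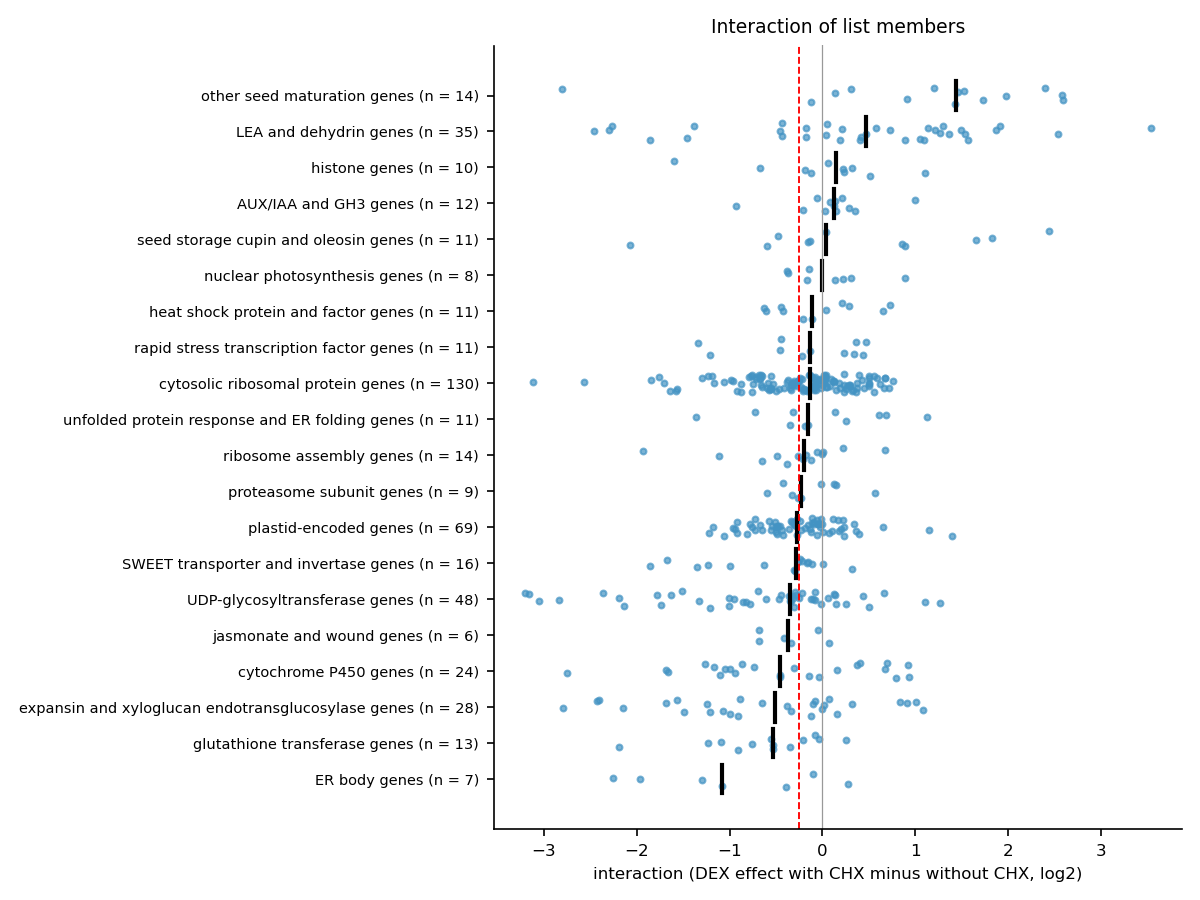
Interaction (x axis, log2) of each measured member (points) of the 20 gene lists (y axis, with the number of members), ordered by median (black bars). The red dashed line is the median of all genes, -0.26: the seed maturation and LEA lists have medians of 1.44 and 0.47, and the ER body list, at -1.08, is at the other end.

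Interactions below 0 were more numerous on the deposited scale, though not after centring or quantile normalization to the same extent, and had larger p-values at the top of the ranking. The 14 genes of smallest p had adjusted p-values of 0.18 to 0.29 in limma and interactions of -5.07 to -1.01. In all 14 the DEX effect was below 0 with CHX (-2.97 to -0.22) and above 0 without CHX (0.40 to 2.1). In 12 of the 14 the +DEX +CHX arrays lay below every -DEX +CHX array, and the groups without CHX overlapped in 1. The CHX effect was above 0 in 2 of the 14 with DEX and in 12 of the 14 without DEX. Ranking by the interaction favours such separate groups and such signs, and the shares of separate groups over all genes were not computed. Of all genes, the DEX effect was above 0 in 38.6% with CHX and 60.9% without CHX. The CHX effect was above 0 in 32.1% of all genes with DEX and 49.0% without DEX.

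AT1G15830 had the smallest p of these, with log2 intensities of 8.04, 7.77 and 7.89 in the +DEX +CHX group, against 8.0, 9.02 and 8.81 in the -DEX +CHX group. Without CHX it had 9.13, 9.62 and 9.08 in the +DEX -CHX group, against 7.67, 7.75 and 8.18 in the -DEX -CHX group. The DEX groups were apart without CHX and overlapped with it, for an interaction of -2.12 ± 0.41 (SE, adjusted p = 0.18 in limma). AT3G10300, which encodes a calcium-binding EF-hand protein, had 10.64, 11.14 and 10.82 in the +DEX +CHX group, against 11.18, 11.26 and 11.42 in the -DEX +CHX group, and 8.42, 8.72 and 8.86 in the +DEX -CHX group, against 7.90, 7.69 and 7.92 in the -DEX -CHX group. This transcript was higher on all arrays with CHX than on any without, and its interaction was -1.26 ± 0.26 (SE, adjusted p = 0.22 in limma).

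GT72B1, a glycosyltransferase that attaches glucose to phenolic compounds and to some pollutants, was also higher on all arrays with CHX. Its values were 12.05, 11.96 and 12.02 in the +DEX +CHX group, against 12.27, 12.30 and 12.12 in the -DEX +CHX group, and 10.37, 10.09 and 10.57 in the +DEX -CHX group, against 9.30, 9.70 and 9.67 in the -DEX -CHX group. All groups were apart, with DEX effects of -0.22 ± 0.16 with CHX and 0.79 ± 0.16 without CHX and an interaction of -1.01 ± 0.23. AT3G14200, which encodes a DnaJ-type co-chaperone, had an interaction of -1.07 ± 0.24, with DEX effects of -0.55 with CHX and 0.52 without. AT3G28480, which encodes a prolyl 4-hydroxylase, a class of enzyme that modifies cell wall glycoproteins, had -1.26 ± 0.29, with DEX effects of -0.87 with CHX and 0.40 without. AT4G11710, measured by a probe set of a type that can match several transcripts, had the largest estimate of the 14 at -5.07 ± 1.09, but 3 of its 12 values were at the floor, and with a floor of 64 it was -2.27. The other 8 (AT1G79170, AT3G18230, AT1G72810, AT2G13430, AT4G35070, AT1G13040, AT5G35710 and AT2G18630) had interactions from -3.27 to -1.75.

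**Figure D4:**
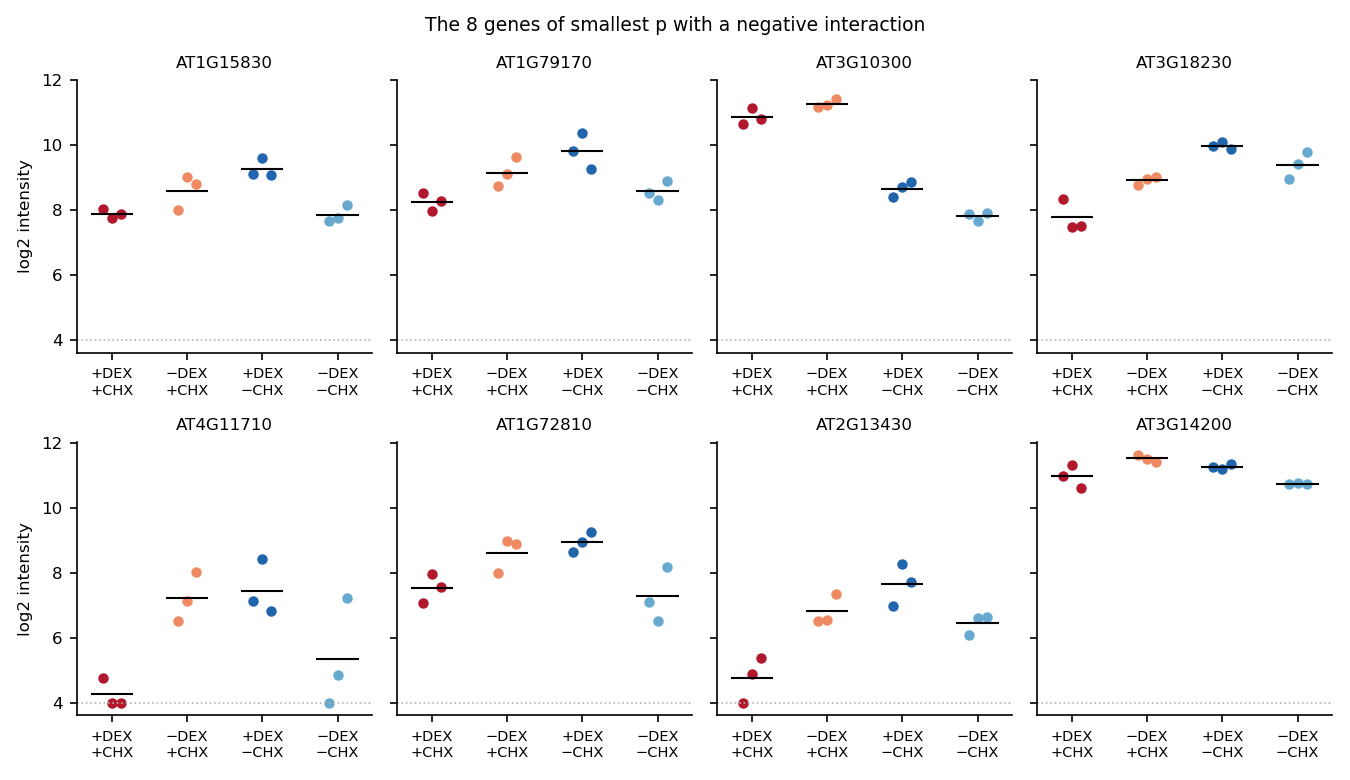
Log2 intensity (y axis) on each array of the 4 groups (x axis) for the 8 genes of smallest p with an interaction below 0. Points are arrays, bars are group means and the dotted line is the floor: with CHX the +DEX means are the lower ones and without CHX the higher ones, and 2 of the genes have values at the floor.

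The ER body genes had the lowest list median. ER bodies are compartments of the endoplasmic reticulum of root and seedling cells that store beta-glucosidases such as PYK10, with NAI1 as their transcriptional regulator, NAI2 as a structural protein and jacalin-related lectins (JAL) as partners of the enzyme. Of the 7 measured, 6 had interactions below 0 and 1 lay above 0, where 35.4% of all genes were above 0. At an unadjusted p under 0.05, 2 lay below 0 (28.6%, against 6.15% of all genes), and none passed the threshold. The count of 2 became 1 after centring, after quantile normalization and without -DEX +CHX replicate 1. It was 3 without +DEX +CHX replicate 2 and 4 without both arrays of lowest weight. Over all 22746 probe sets the counts below 0 in these settings were 876, 1012, 1285, 2552 and 2079, against 1329 as deposited. The median was -1.08, which is 0.83 below that of all genes. With a floor of 64 it was only 0.21 below, the smallest distance in the 23 alternatives, and without -DEX -CHX replicate 2 it was 1.08 below. The mean level of the 7 was 7.39, 8.22 and 7.66 in the +DEX +CHX group, against 8.69, 8.71 and 8.63 in the -DEX +CHX group. Without CHX it was 10.58, 10.68 and 10.74 in the +DEX -CHX group, against 10.66, 10.56 and 10.62 in the -DEX -CHX group. The list was lower on all arrays with CHX than on any without, and lowest with DEX and CHX together.

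JAL33 was at the floor on 2 +DEX +CHX arrays and at 6.33 on the other, against 7.16, 7.14 and 6.79 in the -DEX +CHX group. Without CHX it ran from 11.66 to 12.15 in the +DEX -CHX group, against 11.85 to 12.05 in the -DEX -CHX group, so that the DEX groups were apart with CHX and overlapped without it. The interaction of -2.25 ± 0.68 (SE, adjusted p = 0.43 in limma) depends on that floor, and it was -0.92 with a floor of 64. NAI1 had 7.19, 6.91 and 7.08 in the +DEX +CHX group, against 7.75, 7.65 and 8.23 in the -DEX +CHX group, and 7.46, 7.91 and 7.53 in the +DEX -CHX group, against 7.29, 7.87 and 6.94 in the -DEX -CHX group. It was not at the floor on any array, its DEX groups were apart with CHX and overlapped without it, and its interaction was -1.08 ± 0.48. JAL23 (-1.97 ± 1.35) and JAL22 (-1.30 ± 0.86) also had values at the floor. The abundant members NAI2 (-0.39 ± 0.37), JAL34 (-0.10 ± 0.24) and PYK10 (0.28 ± 0.25) had small interactions.

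The medians of the families that modify small molecules lay below that of all genes, but the interaction also moved with level. All probe sets with a mean log2 of 7 to 8 had a median of -0.31. The UDP-glycosyltransferases had -0.35 and the glutathione transferases -0.54. After quantile normalization these 2 lists lay 0.18 and 0.14 below the median of all genes. UDP-glycosyltransferases attach sugars to hormones and secondary metabolites. Of 48 measured, 38 had interactions below 0, 8 of them at an unadjusted p under 0.05 (16.7%, against 6.15% of all genes) and none above 0 at that p, with a median 0.09 below that of all genes. The 10 above 0 compare with 35.4% of all genes above 0. UGT85A7 had 6.15, 7.18 and 6.67 in the +DEX +CHX group, against 7.66, 7.57 and 8.21 in the -DEX +CHX group, and 8.89, 9.03 and 8.34 in the +DEX -CHX group, against 7.26, 4.87 and 8.10 in the -DEX -CHX group. Its DEX groups were apart in both states, in opposite directions, and its interaction was -3.16 ± 0.92. UGT71B8 (-3.06 ± 0.88) and UGT84A1 (-2.36 ± 0.80), a glucosyltransferase for hydroxycinnamic acids, followed, together with UGT84B1, UGT84B2, UGT78D1, UGT73B1 and GT72B1. Of 13 glutathione transferases, which conjugate glutathione to reactive compounds, 1 had an interaction above 0 and 3 lay below 0 at that p (23.1%), with a median 0.28 below that of all genes. The 3 became 1 after centring and 2 after quantile normalization or without -DEX -CHX replicate 2. Over all 22746 probe sets the counts below 0 at that p were 876, 1012 and 966 in these settings, against 1329 as deposited. GSTU26 had 6.28, 6.26 and 5.99 in the +DEX +CHX group, against 7.57, 7.70 and 7.69 in the -DEX +CHX group, and 7.17, 7.63 and 7.64 in the +DEX -CHX group, against 5.98, 7.68 and 6.64 in the -DEX -CHX group. Its DEX groups were apart with CHX and overlapped without it, for an interaction of -2.18 ± 0.62. GSTU22, an abundant member, had -0.75 ± 0.30.

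Cytochromes P450 and the expansin and xyloglucan endotransglucosylase genes, whose products loosen cell walls, had medians 0.20 and 0.26 below that of all genes, with 2 of 24 (8.33%) and 2 of 28 (7.14%) below 0 at an unadjusted p under 0.05, shares near the 6.15% of all genes. These lists were dim, with 14 of 24 P450 genes and 12 of 28 wall genes at a mean log2 under 6, against 27.9% of all probe sets. Their own medians were -0.46 and -0.52. All probe sets at a mean log2 of 5 to 6 and 6 to 7 had medians of -0.55 and -0.56. After quantile normalization the 2 lists lay 0.28 and 0.27 below the median of all genes. Without both arrays of lowest weight the wall list lay 0.01 above the median of all genes. EXPA16 (-2.79 ± 0.95) and EXPA9 (-2.40 ± 0.99), which are expansin genes, were the wall genes below 0 at that p. The expansin-like gene EXLA3 lay above 0 at 0.84 ± 0.23, with 13.52, 13.72 and 13.89 in the +DEX +CHX group, against 13.67, 13.49 and 13.42 in the -DEX +CHX group, and 8.78, 8.85 and 8.68 in the +DEX -CHX group, against 9.44, 9.16 and 9.68 in the -DEX -CHX group. It was higher on all arrays with CHX than on any without, and its DEX groups were apart only without CHX. CYP71B36 had the lowest P450 value at -2.75 ± 1.02.

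Lists whose levels lay far apart between the CHX states could still have interactions near that of all genes. The 130 cytosolic ribosomal protein genes averaged 7.63, 7.96 and 7.64 in the +DEX +CHX group and 7.92, 7.86 and 7.92 in the -DEX +CHX group, against 9.33, 9.44 and 9.39 in the +DEX -CHX group and 9.42, 9.04 and 9.38 in the -DEX -CHX group. Their median interaction was -0.14, which is 0.12 above that of all genes, and 0.03 below it after quantile normalization. At an unadjusted p under 0.05, 2 lay above 0 (1.54%) and 8 below 0 (6.15%), shares close to those of all genes. With +DEX +CHX replicate 2 left out, 21 lay below 0. Over all 22746 probe sets the count below 0 also rose, from 1329 to 2552. AT3G53430 (-0.72 ± 0.25), AT3G56340 (-0.76 ± 0.28) and AT3G09200 (0.76 ± 0.29) were among the 4 members of smallest p, and AT5G09500 was the other, with all +DEX +CHX arrays at the floor. The 11 rapid stress transcription factor genes, which respond early to wounding and pathogens, averaged 10.45, 10.44 and 10.61 in the +DEX +CHX group and 10.51, 10.50 and 10.69 in the -DEX +CHX group, against 8.47, 8.39 and 8.55 in the +DEX -CHX group and 8.45, 8.26 and 8.37 in the -DEX -CHX group. None was at an unadjusted p under 0.05 in either direction. STZ, a zinc-finger repressor, had an interaction of 0.43 ± 0.25, and WRKY22, a defence regulator, had 0.36 ± 0.23. TINY2, the stress factor of smallest p, was at the floor on all +DEX +CHX arrays.

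In the other lists summarised, at most 1 member in each direction lay at an unadjusted p under 0.05, and medians differed from that of all genes by 0.40 or less. Of 11 heat shock genes, Hsp70-2, a chaperone, was the 1 above 0, at 0.66 ± 0.30. Of 11 genes of the unfolded protein response and ER folding, AT5G07340, a calnexin, was the 1 above 0 at 1.13 ± 0.41, with 9.27, 9.67 and 9.30 in the +DEX +CHX group, against 9.10, 8.22 and 8.24 in the -DEX +CHX group, and overlapping groups without CHX. The auxin response list of AUX/IAA repressors and GH3 enzymes (12 genes, median 0.38 above that of all genes), the histones (10 genes, 0.40 above) and the nuclear photosynthesis genes (8 genes, 0.25 above) had none in either direction. The jasmonate (6 genes), proteasome (9 genes) and sugar lists (16 genes, which are SWEET sugar transporters and the invertase AT1G62660) had none either. Of 14 ribosome assembly genes, AT3G22660 lay below 0 at -1.11 ± 0.46. Of 69 plastid-encoded genes, psbL lay above 0 (1.40 ± 0.57) and psbA, for a core protein of photosystem II, below 0 (-0.94 ± 0.41). The plastid count below 0 was 9 without +DEX +CHX replicate 2 and 6 without both arrays of lowest weight. Of all 22746 probe sets, 2552 and 2079 lay below 0 at that p in these settings, against 1329 with all 12 arrays. For the heat shock, stress factor, jasmonate, unfolded protein, ribosomal, ribosome assembly, sugar, wall, proteasome and plastid lists, the side of the all-gene median on which the list median lay changed in at least 1 of the 23 alternatives.

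The strongest estimates in the 2 directions differed in the size of the DEX effects and in level. Among the 159 probe sets above 0 at an unadjusted p under 0.01 (0.699%), the median DEX effect was 0.97 with CHX and -0.33 without CHX, the 2 effects were of opposite sign in 125 (78.6%), and the median level was 10.3. Of these 159, 7 had a mean under 6 (4.40%), where 27.9% of all probe sets did. Among the 311 below 0 at that p (1.37%), the median DEX effect was -1.05 with CHX and 1.22 without CHX, the 2 effects were of opposite sign in 303 (97.4%), and the median level was 7.05. In both directions, choosing probe sets by the difference of the 2 effects favours opposite signs. The share of opposite signs over all probe sets was not computed. Of these 311, 105 had a mean under 6 (33.8%). By level, the median interaction was -0.56 for probe sets with a mean log2 of 6 to 7 and 0.18 for those at 12 or more. After quantile normalization the same medians were -0.06 and -0.02, but for the dimmest probe sets, at 4 to 5, the median was 0.30, against -0.16 as deposited.

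**Figure D5:**
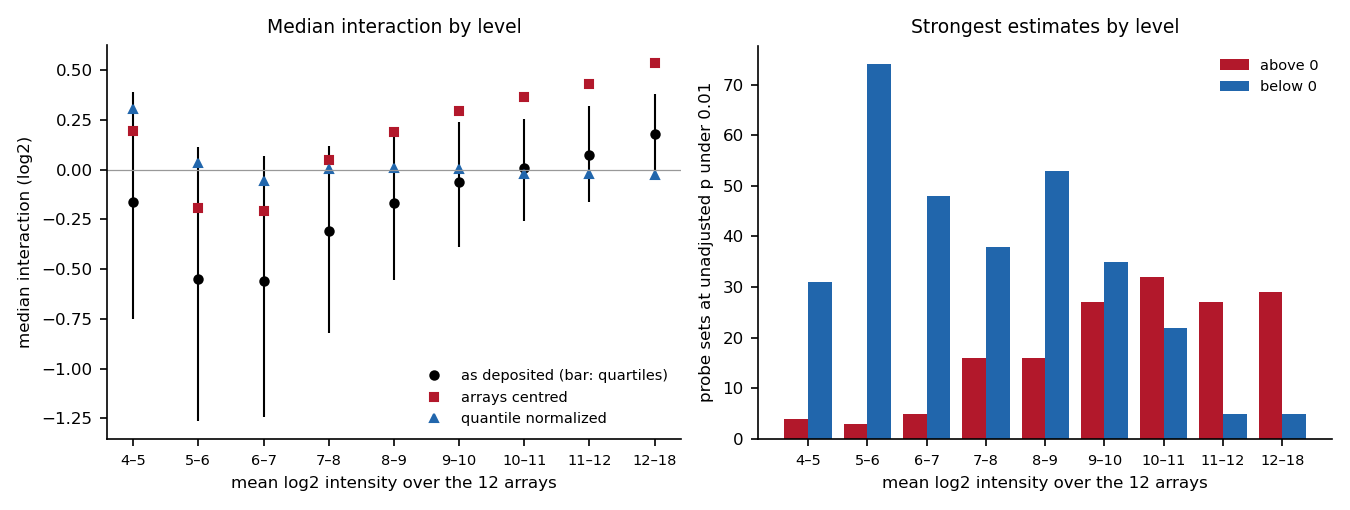
Left, median interaction (y axis, log2) by mean log2 intensity over the 12 arrays (x axis) as deposited (black, bars are quartiles), after centring (red) and after quantile normalization (blue). Right, number of probe sets at an unadjusted p under 0.01 with an interaction above 0 (red) and below 0 (blue) in the same bins: estimates below 0 prevail among dim probe sets, with 74 against 3 at 5 to 6, and estimates above 0 among bright ones, with 29 against 5 at 12 or more.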

How the data were processed

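Total RNA was hybridised to 12 Affymetrix Arabidopsis arrays. The deposited table holds linear intensities for each probe set on each array. After trimming 2% from each end their mean was 500 on every array, as read from the table. The sources used here do not give the software. The arrays were matched to samples by name, and no array repeated another. Intensities were floored at 16 and converted to log2, since the deposited intensities were linear.

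The interaction was a contrast of the 4 group means in a linear model of all 12 arrays, made with limma 3.58.1 (lmFit and eBayes, trend on) under R 4.3.3. Adjusted p-values are Benjamini-Hochberg over 22746 probe sets, with a threshold of 0.05. Standard errors come from the fit. Tables and figures were made with Python 3.11.15, pandas 2.3.3 and matplotlib 3.10.9. The fit was tested on simulated data with independent noise. These held no array-wide differences in intensity, so that test does not cover how such differences move the counts.

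The platform annotation gave 1 gene to 13513 of the probe sets, several to 503 and none to 8730. Names were updated by Entrez ID with the TAIR10.1 gene table, where 13436 matched. Where there is no symbol, the locus name is used. The probe set of highest mean stood for a gene. ABI3 is not named in that annotation, so its own level is not reported. Of 24 gene lists with 1411 entries, 493 entries were measured, and 20 lists had at least 4 measured genes. An entry counted as measured only where the annotation gave its gene alone to a probe set, so other entries may still lie on the array. Those with fewer were ABA signalling (1 of 62), seed regulators (3 of 21), lignin and suberin (2 of 33) and aquaporins (0 of 21). The gene table gives no product names, so the lists were matched by locus and symbol only, and the intended lists of peroxidases and of ion transport were not made.

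The text names every probe set past the threshold, then the 14 genes of smallest p in each direction with a mean log2 of at least 6 and no group wholly at the floor, then up to 4 members of each list by smallest p. Other list members that are named were chosen after their values were seen. The comparison, the named genes' rule and the lists were chosen with earlier results of these data known. An unadjusted p under 0.05 or 0.01 is used only to describe.

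No pairing by replicate number was seen: deviations from group means correlated at -0.44 to 0.29 over the 18 same-numbered pairs, and 4 of those were over 0.1. Such deviations also carry array-wide differences in intensity, so they cannot tell whether arrays of the same number shared a preparation. Alternatives were quantile normalization, centring, a floor of 64, a pseudocount of 1 without a floor, a minimum mean, no variance trend, an unmoderated fit, robust eBayes, a replicate block, array weights, and the removal of each array. Removing both arrays of lowest weight was added after seeing the data.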

Additional observations from a re-analysis of the deposited data

Results flagged for a closer look

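The DEX effect on 260716_at differed between the cells with CHX and those without by 2.75 on the log2 scale, by the test of the interaction itself. The effect was 3.52 with CHX and 0.77 without CHX, and all 3 +DEX arrays lay above all 3 -DEX arrays in each state.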

How the results depend on the processing

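The count of probe sets past the threshold depended on the analysis. It was 1 as described, and 12 after quantile normalization, 7 after centring, 5 with a pseudocount of 1, 15 with a mean log2 of at least 6 and 17 with robust eBayes, all with interactions above 0. It was 0 with a floor of 64 (1760 at an unadjusted p under 0.05), without the variance trend (1746) and in the unmoderated fit (1652). With the replicate block in limma it was 0 as well (1569). In their deviations from group means, 2 of 12 arrays correlated best with their own number, which cannot tell whether a shared preparation underlies the numbers. Leaving out 1 array gave counts from 0 to 15, with 15 (13 above 0 and 2 below) without -DEX +CHX replicate 1, 3 without +DEX +CHX replicate 3 and 2 without +DEX -CHX replicate 3. It was 0 without +DEX +CHX replicate 1 and without any 1 of +DEX -CHX replicates 1 and 2 or the 3 -DEX -CHX replicates. Leaving out both arrays of lowest weight, chosen after seeing the data, gave 0 (2795). The count at an unadjusted p under 0.05, 1814 as described, was 3303 without +DEX +CHX replicate 2. The causes were not tested. The 28 named genes kept the sign of their interaction in all 23 alternatives. They were chosen by smallest p in these same arrays, so the kept sign is not independent support. A dim transcript is limited by the floor, and 3 arrays per group limit the rest.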

Other observations

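In at least 1 of the 23 alternatives, 25 probe sets passed the threshold, and 22 of them had interactions above 0. Some of them, without a gene in the platform table, are given after their values were seen. 266462_at passed in 5 of the 23, with an interaction of 1.70 ± 0.23 (SE) and DEX effects of 1.31 with CHX and -0.38 without. 263175_at passed in 4, with 3.56 ± 0.56 and DEX effects of 3.51 with CHX and -0.05 without. 249082_at passed in 4, with 3.95 ± 0.69 and DEX effects of 4.11 with CHX and 0.16 without. 254095_at passed in 4, with 2.70 ± 0.48 and DEX effects of 2.13 with CHX and -0.57 without. Of named genes, AT5G45690 passed in 7 alternatives, and AT1G27461 and AT3G54940 in 6 each.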
